A study of Mus musculus with 2 samples.

Results

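Mitochondria make most of the ATP of a beating heart, and the genes described here encode the nuclear part of that machinery. The members are the 84 of 38355 genes in the authors' deposited table whose symbol names a subunit family of complex I (Nduf), II (Sdh), III (Uqcr), IV (Cox4 to Cox8) or V (Atp5). They were found by a symbol pattern that uses no measured value, but the members were chosen with earlier results of these data known. Complex I had 35 members, complex II had 4, complex III had 8, complex IV had 18 and complex V had 16. Ndufa4 was counted with complex IV, where its protein sits. The remaining 3, Atp5s, Atp5sl and Cox7a2l, carry a family name but are not subunits of the complex they are named for. GENCODE lists 83 members as protein-coding and Atp5l2 as a processed pseudogene.

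Complexes I and II pass electrons from NADH and succinate to ubiquinone, complex III passes them on to cytochrome c, and complex IV hands them to oxygen. Complexes I, III and IV pump protons as they do so, and complex V, the ATP synthase, uses the returning protons to make ATP. Most subunits are encoded in the nucleus, and a few core subunits of complexes I, III, IV and V are encoded in mitochondrial DNA. Complex IV has subunits that come in a heart and skeletal muscle form and a form made in most tissues. The 13 protein-coding genes of mitochondrial DNA were not analysed here, because 0 were found in the authors' deposited table under the names searched.

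The RNA came from cardiac ventricles of C57BL/6 mice aged 16 weeks. The labels give 1 sample of each genotype: Flox, which carries the allele Tbx5LDN/LDN, and vTBX5KO, which carries Tbx5LDN/LDN and Myh6-MerCreMer. Both genotypes therefore carry this Tbx5 allele, and the vTBX5KO genotype adds a Cre recombinase driven by the Myh6 promoter, which limits the model to cardiomyocytes. The treatment text is the same for both: TX at 30 mg/kg per day on 3 days, begun at 12 weeks of age, with tissue taken 4 weeks after induction. Per the series' design text, the study profiled expression in these genotypes. The authors' deposited table names its groups only A and B, and no source used here says which letter is which genotype, so every difference below is group B relative to group A. The comparison thus cannot be read as an effect of losing Tbx5 in either direction.

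Reads were recovered for 6 libraries, 3 of each letter, from the pooled means of genes with a mean of up to 100; the relative depths (size factors) ran from 0.61 to 1.56, and libraries are numbered within a letter from the deepest. The labels do not say that libraries sharing a letter are different animals, so all p-values measure the spread between libraries, which may be technical. The 12 ventricular cardiomyocyte markers searched all had reads, with mean normalized counts of 38224 to 1263440 in the authors' deposited table. In that group 10 of 12 were below 0, with a median log2 fold change of -0.13 and 1 call, Actc1, cardiac actin (-0.55, adjusted p = 0.000124). Of other cells, 7 of 8 fibroblast markers (median 0.21), 8 of 9 macrophage markers (median 0.18), 7 of 8 smooth muscle and pericyte markers (median 0.14) and 5 of 5 red cell markers (median 0.48) were above 0 in the authors' deposited table. Endothelial markers were 4 above and 4 below 0, and all 3 tested atrial markers were below. All 3 tested brown or white adipocyte markers were above 0, and 2 of 3 tested skeletal muscle markers were below. Those below were Myh2 (-0.21) and Ckm (-0.16), which is also among the 12 cardiomyocyte markers, and Acta1 had 0.51. The brown fat marker Ucp1 had no adjusted p. Its normalized reads were 52.7 in library A3, 118 in B3 and 1.73 to 3.77 in the others. Calls among these lists in the authors' deposited table were the macrophage receptor Mrc1 (0.46, adjusted p = 0.00402) and the channel regulator Abcc9 (-0.65, adjusted p = 0.00144). The part of these markers in the differences below was not tested. In bulk tissue, fewer cells of a type and less RNA per cell cannot be told apart.

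Of the 84 members, 83 had reads, and the exception was Cox8c, a testis form of subunit 8. By the authors' deposited table, 64 members were tested (had an adjusted p), 15 had a mean above the lowest tested mean of 16.0 but no adjusted p, and 4 (Cox6b2, Cox7b2, Atp5g2 and Atp5l2) lay below that mean. At an adjusted p under 0.05, 2 of the 64 members were lower in group B and 0 were higher. Over all genes, 527 of 13230 (3.98%) were called, 329 (2.49%) lower and 198 (1.5%) higher. The number of members called is close to what the share of all genes gives over 64 genes. Among tested genes with a mean of at least 1000, 145 of 2809 were called lower and 22 higher. Of the 56 tested members with such a mean, 2 were called lower and 0 higher. The authors' deposited table gives no unadjusted p; limma-voom on recovered reads, run on 6 low members, called 0, with 0 at an unadjusted p under 0.05. The 2 genes that fell were Cox6a2, the muscle form of complex IV subunit 6a, and Ndufs6, an accessory subunit of complex I.

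Most other members lay a little below 0. The median log2 fold change of the 64 tested members was -0.12 in the authors' deposited table, beside -0.00 for all 13230 tested genes. Of the 64, 53 (82.8%) were negative, beside 50.1% of all tested genes. The differences were small: 55 of 64 had a size under 0.3 on the log2 scale, and the standard error (SE), for which only an upper bound can be had, was at most 0.088 to 0.30. These members share libraries, so their signs are not separate observations. With the 15 that had no adjusted p, 55 of 79 (69.6%) were negative and the median was -0.09.

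**Figure D1:**
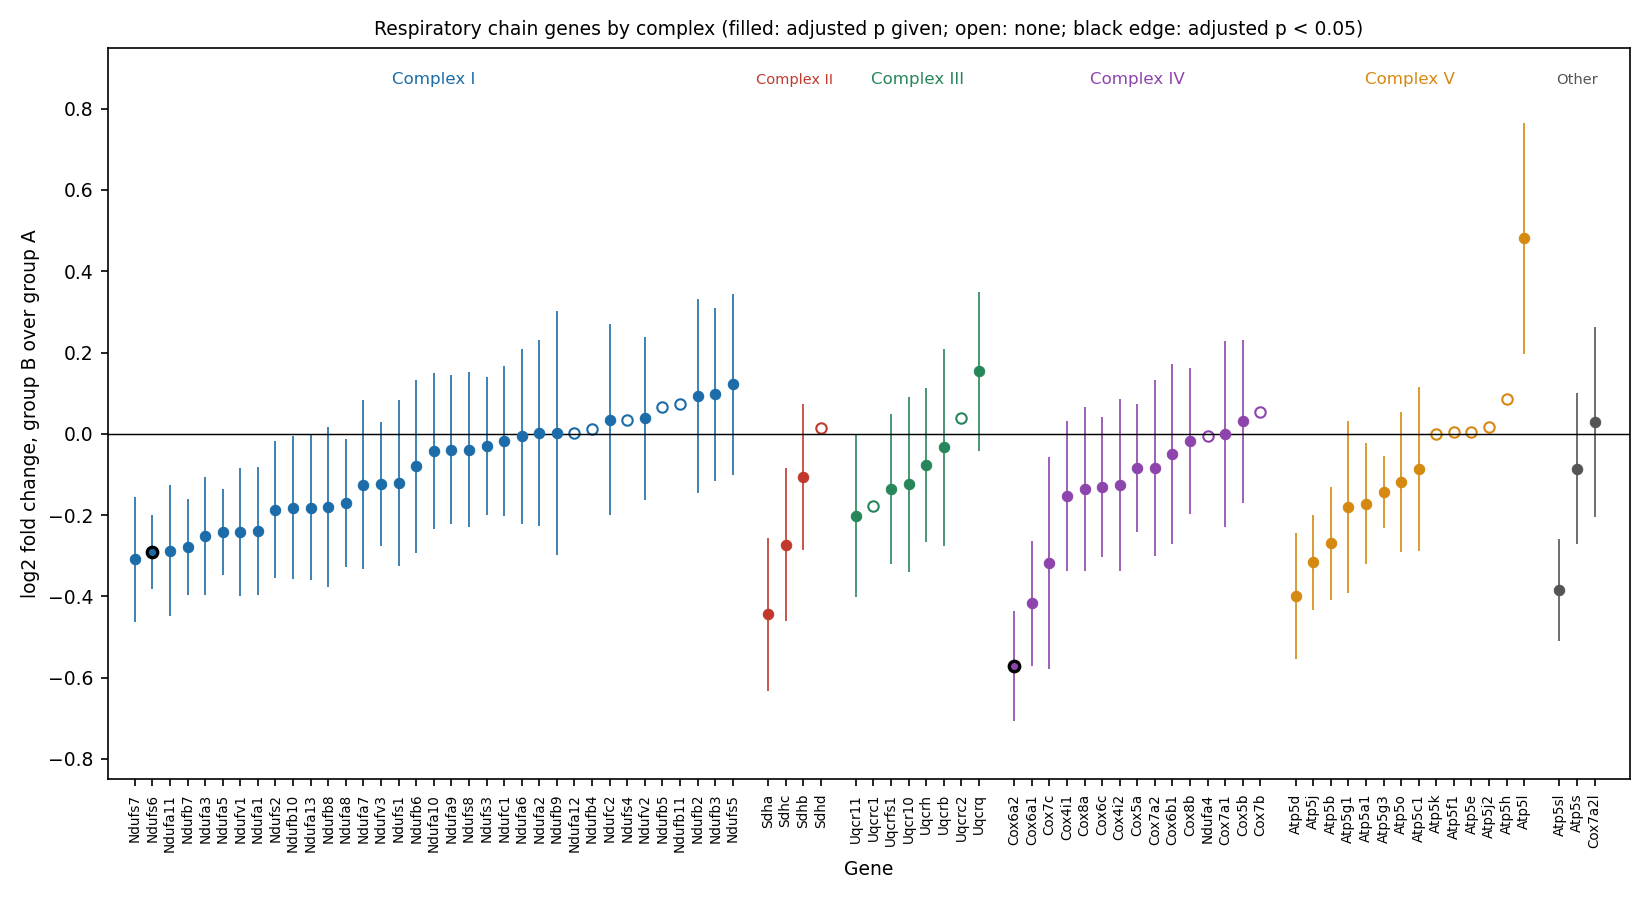
Log2 fold change of group B over group A (vertical axis) for each member with a mean above the lowest tested mean, ordered by complex; bars are the upper bound of the standard error, open points have no adjusted p and black edges mark an adjusted p under 0.05. Only Cox6a2 and Ndufs6 have a black edge, and 14 of the 15 open points lie within 0.1 of 0.

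**Figure D2:**
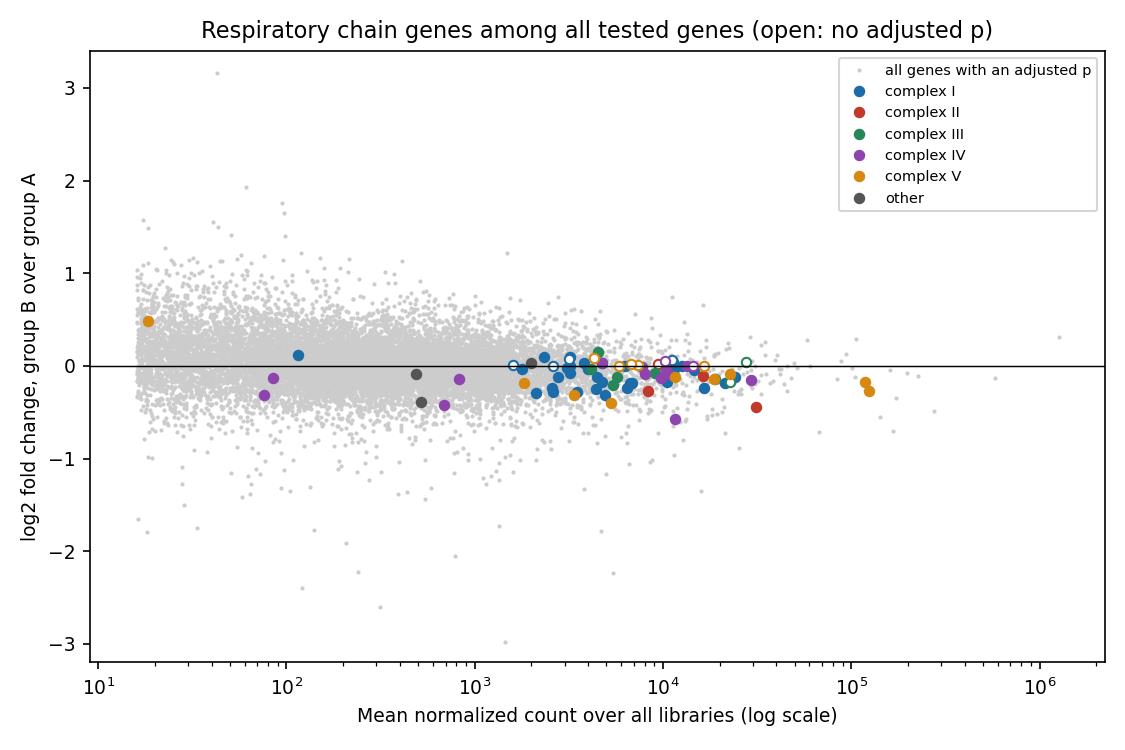
Log2 fold change (vertical axis) against the mean normalized count over all libraries (horizontal, log scale) for the 13230 genes with an adjusted p in grey and the members in colour by complex; open points have no adjusted p. Most members sit at the right, among the highly expressed genes, and slightly below 0.

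Highly expressed and short genes as a whole also lay below 0, and the members are both. In the authors' deposited table, 61.4% of genes with a mean of at least 1000 were negative, as were 64.4% of protein-coding genes in the decile of highest mean and 62.3% of those in the 3 deciles of shortest genomic span. Of the 64 tested members, 53 fell in the decile of highest mean and 52 in the 3 shortest deciles. Medians of other protein-coding genes ran from -0.09 in the shortest decile to 0.11 in the longest. Measured from the median of their own decile of span, the members' median was -0.08, with 45 of 64 below. Measured from their decile of mean it was -0.05, with 43 of 64 below. Span and mean thus move with the members' shift, and their part in it was not tested.

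**Figure D3:**
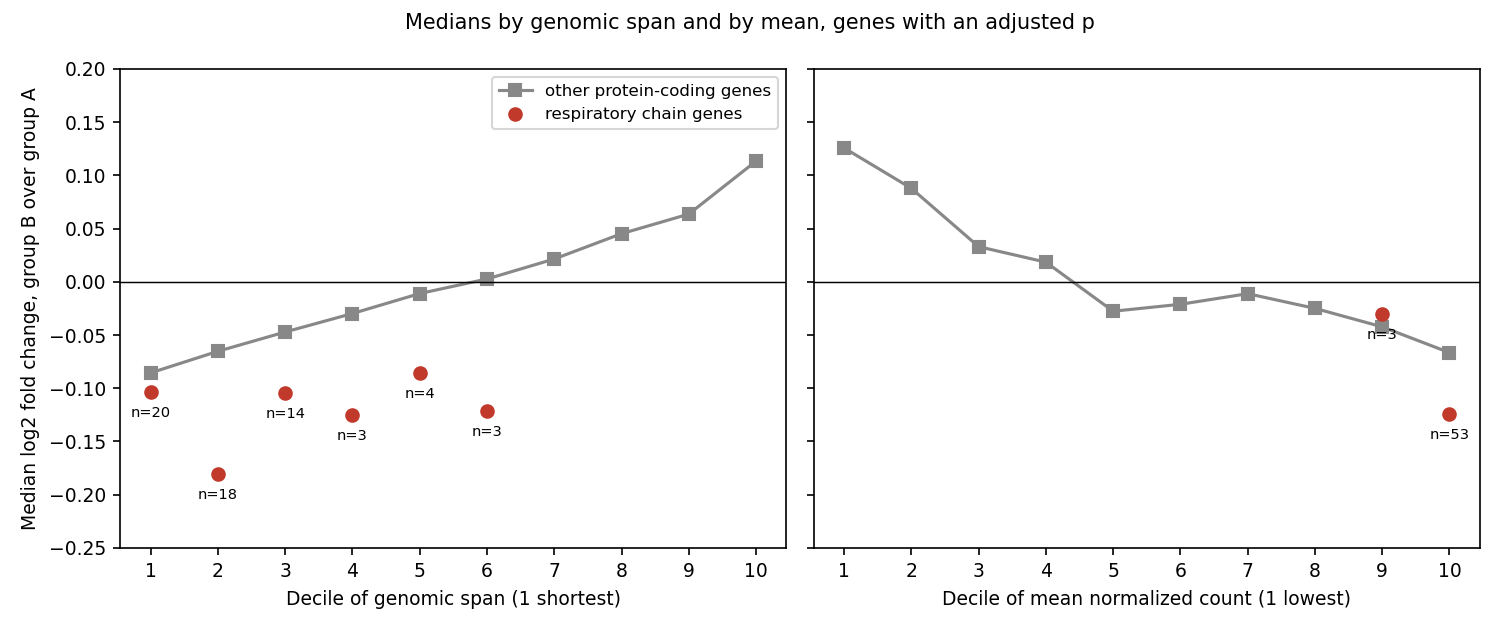
Median log2 fold change (vertical axis) of the members (red, with their number, where at least 3 fall in a decile) and of other protein-coding genes (grey) by decile of genomic span (left) and of mean (right). The grey medians fall from long to short genes, from 0.11 to -0.09, and the red points in the 6 shortest deciles lie below them.

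Complex I takes electrons from NADH through a peripheral arm of core subunits and iron-sulfur clusters, with many accessory subunits around it. Its 30 tested members had a median of -0.12 in the authors' deposited table, with 23 negative and 1 called. With its 5 members that had no adjusted p, the complex I median was -0.04. The 7 core subunits encoded in the nucleus had a median of -0.12, with 6 of 7 negative. The 23 tested accessory subunits had the same median to 2 decimals. All 5 members with no adjusted p are accessory subunits, and with them the accessory median was -0.04, nearer 0 than that of the core. The lowest value was that of Ndufs7, the core subunit that binds the last iron-sulfur cluster before ubiquinone: -0.31 with an SE of at most 0.15 and adjusted p = 0.322 in the authors' deposited table. Its fold was larger than that of Ndufs6 but less precise, and it was not called.

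Ndufs6, a zinc-binding accessory subunit at the NADH-oxidising end, lies at chr13:73319874-73328542 (GRCm38). In the authors' deposited table its mean normalized count was 2127 and its log2 fold change -0.29, which is 1.22-fold lower in group B, with adjusted p = 0.0368. The standard error was at most 0.09. Its exons overlap 30 bases of Mrpl36 on the opposite strand, 3.34% of their length, and the sources used here do not say whether libraries kept strand. At an adjusted p under 0.01, Cox6a2 alone remained of the 64, beside 1.49% of all tested genes called lower.

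The highest tested complex I values in the authors' deposited table were 0.12 for Ndufs5 (adjusted p = 0.901) and 0.10 for Ndufb3, an accessory subunit of the membrane arm (adjusted p = 0.925). Ndufs5 also had, at 115, the lowest mean of the complex in the authors' deposited table, although its protein is part of every assembled complex I. A near-identical processed pseudogene, BC002163, had a mean of 921 in the same table and a log2 fold change of -0.11 (adjusted p = 0.910). The sources used here do not say how reads that fit both were counted, so the level of Ndufs5 is uncertain. The coding sequence of Ndufs5 and the matching stretch of BC002163, read from GENCODE M21 on GRCm38, differ at 2 of 318 bases; the first 150 bases are shown because they hold both differences, in capitals.
Ndufs5: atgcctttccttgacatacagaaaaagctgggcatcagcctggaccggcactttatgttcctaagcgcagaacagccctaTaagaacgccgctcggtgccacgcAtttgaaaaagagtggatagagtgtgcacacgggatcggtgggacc
BC002163: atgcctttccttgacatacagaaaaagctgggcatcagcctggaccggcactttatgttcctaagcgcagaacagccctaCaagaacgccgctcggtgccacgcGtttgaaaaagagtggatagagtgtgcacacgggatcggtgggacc

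Complex II is the succinate dehydrogenase shared with the citrate cycle, and all its subunits are encoded in the nucleus. Sdha, its flavoprotein, had the largest difference in the authors' deposited table, -0.44 at a mean of 31145, with an SE of at most 0.19 and adjusted p = 0.196. Sdhc, a membrane anchor, had -0.27 (adjusted p = 0.570) and Sdhb, the iron-sulfur protein, -0.11 (adjusted p = 0.891) in the authors' deposited table. Sdhd, the other anchor, had 0.02 by the authors' deposited table, with no adjusted p. None of the 4 was called. The SE of each of the 3 tested was at most 0.18 to 0.19. This upper bound exceeds the size of the Sdhb value but not those of Sdha and Sdhc, and the SE itself may be smaller. The complex II median was -0.27 over the 3 and -0.19 with Sdhd.

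Complex III oxidises ubiquinol and reduces cytochrome c. Its 6 tested members had a median of -0.10 in the authors' deposited table, with 5 negative and none called. The range ran from -0.20 for Uqcr11, a small accessory subunit (adjusted p = 0.749), to 0.15 for Uqcrq, a small ubiquinone-binding subunit (adjusted p = 0.828), in the authors' deposited table. Uqcrfs1, the Rieske iron-sulfur protein, had -0.14 (adjusted p = 0.845) and Uqcrb -0.03 (adjusted p = 0.980) in the authors' deposited table. The paired core proteins Uqcrc1 (-0.18) and Uqcrc2 (0.04) had no adjusted p there. Measured from the medians of their deciles of span, the complex III median was -0.02.

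Complex IV, cytochrome c oxidase, carries its isoforms in the nuclear subunits that surround the core. Its 13 tested members had a median of -0.13 in the authors' deposited table, with 12 negative and 1 called. Measured from the medians of their deciles of span it was -0.05, and with the members that had no adjusted p it was -0.09. Cox6a2, at chr7:128205436-128206366 (GRCm38), had the lowest log2 fold change of the 64 tested members, -0.57 at a mean of 11561 by the authors' deposited table, 1.49-fold lower in group B, with adjusted p = 0.00183. The standard error was at most 0.14. Its exons overlap 70 bases of Itgad on the opposite strand, 10.3% of their length. Measured from the median of its decile of span, the value was -0.49.

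The partner made in most tissues, Cox6a1, had a log2 fold change of -0.42 in the authors' deposited table with adjusted p = 0.110, so it was not called. Its standard error was at most 0.15. The muscle form minus its partner was -0.15, with an SE of at most 0.21 if the 2 genes vary independently, which the table cannot show. The size of this difference was below that upper bound, which does not show whether it exceeds the error itself. Both members lay below 0. Per kb of transcript, Cox6a2 had a mean of 17001 and Cox6a1 of 1199, a ratio of 14.2.

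The muscle forms of the other subunits lay near 0. Cox7a1, the muscle form of subunit 7a, had -0.00 and Cox7a2, its partner, -0.08 in the authors' deposited table (adjusted p = 1.000 and 0.938). Cox8b, the muscle form of subunit 8 in rodents, had -0.02 and Cox8a -0.14 in the authors' deposited table (adjusted p = 0.987 and 0.867). Muscle minus partner was 0.08 (standard error at most 0.32) and 0.12 (at most 0.27). Per kb of transcript, the muscle form was the higher in each pair, by 2.26 times for subunit 7a and 14.3 times for subunit 8. Cox6a2 minus Cox7a1 was -0.57 (SE at most 0.27) and Cox6a2 minus Cox8b was -0.55 (SE at most 0.23), if the genes vary independently. These differences were chosen after their values were seen and have no test.

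**Figure D4:**
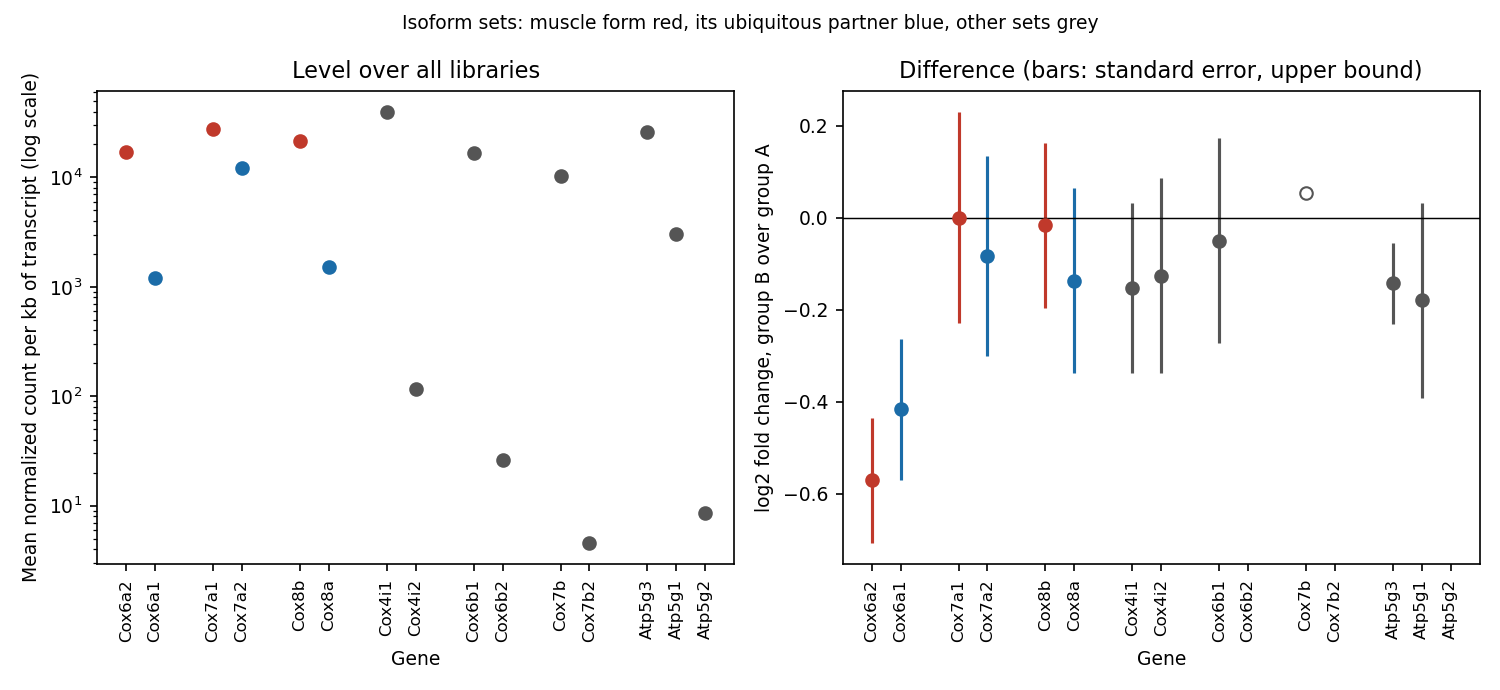
Left: mean normalized count per kb of transcript over all libraries (log scale) of each isoform set. Right: log2 fold change of group B over group A with the upper bound of its standard error for isoforms above the lowest tested mean. Muscle forms (red) are the higher of each pair, at 17001 to 27518 against 1199 to 12189 for their partners (blue), and the subunit 6a pair lies lowest, at -0.57 and -0.42.

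Other complex IV sets were dominated by 1 form. Cox4i1 had a mean per kb of 39596 and Cox4i2, a form known from lung, 116; Cox6b1 had 16847 and the testis form Cox6b2 had 25.9; Cox7b had 10290 and the testis form Cox7b2 had 4.57. In the authors' deposited table, the log2 fold changes were -0.15 for Cox4i1 (adjusted p = 0.812), -0.13 for Cox4i2 (0.889) and -0.05 for Cox6b1 (0.963). The highest tested value of the complex was 0.03, for Cox5b (adjusted p = 0.977), in the authors' deposited table.

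Promoter sequences are shown for Ndufs6, Cox6a1, Cox7a1 and Cox8b, subunits named in the complex I and isoform results. They are the 250 bases before the start in RefSeq (GRCm38.p6), 5′ to 3′ on the gene's strand, with capitals for matches to CCGGAAG (the motif of ETS factors such as GABP) or GCGCA, any base, then GCGC (the NRF1 motif), on either strand.
Ndufs6 promoter, chr13:73328483-73328732, minus strand: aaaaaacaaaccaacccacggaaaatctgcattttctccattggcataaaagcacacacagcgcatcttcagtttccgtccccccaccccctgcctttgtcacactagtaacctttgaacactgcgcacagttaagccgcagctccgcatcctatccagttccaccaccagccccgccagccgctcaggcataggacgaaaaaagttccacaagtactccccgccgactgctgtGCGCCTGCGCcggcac
Cox6a1 promoter, chr5:115348959-115349208, minus strand: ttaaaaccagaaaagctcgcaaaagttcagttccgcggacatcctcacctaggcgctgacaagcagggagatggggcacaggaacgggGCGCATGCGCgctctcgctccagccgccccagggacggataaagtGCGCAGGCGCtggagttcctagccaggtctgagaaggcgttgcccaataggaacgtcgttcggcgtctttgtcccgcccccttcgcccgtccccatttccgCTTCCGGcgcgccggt
Cox7a1 promoter, chr7:30183921-30184170, plus strand: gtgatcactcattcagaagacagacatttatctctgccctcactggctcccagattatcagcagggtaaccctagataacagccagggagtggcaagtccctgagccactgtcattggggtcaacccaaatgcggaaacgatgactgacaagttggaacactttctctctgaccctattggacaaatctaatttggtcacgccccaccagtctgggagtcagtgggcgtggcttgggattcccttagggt
Cox8b promoter, chr7:140900447-140900696, minus strand: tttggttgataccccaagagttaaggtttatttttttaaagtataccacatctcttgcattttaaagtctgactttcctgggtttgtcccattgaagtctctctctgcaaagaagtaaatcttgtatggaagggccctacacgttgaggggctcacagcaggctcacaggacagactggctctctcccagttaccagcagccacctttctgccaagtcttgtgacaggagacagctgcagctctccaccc
Cox6a2 and Cox17 had no promoter entry in the source used here, so neither was searched, and the motifs of the called muscle form are not known. Cox6a1 held an ETS match starting 16 bases before the start and NRF1 matches 162 and 117 bases before it, Ndufs6 an NRF1 match 16 bases before, and the muscle forms Cox7a1 and Cox8b neither. Their partners Cox7a2 and Cox8a, not printed, also held neither of these motifs. Cox8a held 1 match to a further motif, the T-box core AGGTGT, starting 122 bases before the start. The motifs searched did not overlap in these promoters. Over 71 promoters of 66 members, 19.7% held the NRF1 motif (14 promoters), beside 3.74% of all 32851 promoters of this length. The ETS motif was in 16.9% (12 promoters) beside 6.91%. Further motifs were counted: the T-box core AGGTGT was in 9.86% of member promoters beside 11.8% of all, TCAAGGTCA (oestrogen-related receptors) in 1.41% beside 0.387%, and the MEF2 motif (CTA, any 4 bases, then TAG) in 1.41% beside 3.20%. A match describes letters, and its presence was not set against any difference in level.

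Complex V, the ATP synthase, has a catalytic F1 head, a central and a peripheral stalk and a c ring in the membrane. Its 9 tested members had a median of -0.17 in the authors' deposited table, with 8 negative and none called. Its 5 members with no adjusted p all lay above 0, and with them the median was -0.10. The lowest were Atp5d, the delta subunit of the central stalk (-0.40, adjusted p = 0.140), and Atp5j, factor 6 of the peripheral stalk (-0.32, adjusted p = 0.111), in the authors' deposited table. The head subunits were the most abundant members per kb, at 65058 for Atp5b (beta, catalytic) and 47970 for Atp5a1 (alpha). In the authors' deposited table they had -0.27 (adjusted p = 0.345) and -0.17 (adjusted p = 0.697). Of the c ring genes, which encode one mature protein, Atp5g3 had 26041 per kb, Atp5g1 3054 and Atp5g2 8.60. The first 2 had -0.14 and -0.18 in the authors' deposited table (adjusted p = 0.487 and 0.806). A near-identical pseudogene of Atp5g1, Gm10039, had a mean of 3923 and a log2 fold change of -0.05 there, beside a mean of 1820 for Atp5g1. Gm10175, a pseudogene near-identical to Atp5g2, had a mean of 17.8, beside 3.79. The values of Atp5g1 and Atp5g2 are therefore uncertain. After Atp5l, described below, the highest tested value was -0.09, for Atp5c1, the gamma subunit (adjusted p = 0.930), in the authors' deposited table.

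For members with a mean under 100, whole reads per library could be set against the letters. Cox7c, a small complex IV subunit, had 89.1, 82.9 and 85.7 normalized reads in libraries A1, A2 and A3, and 51.1, 49.5 and 98.8 in B1, B2 and B3. Library B3 lay above all of group A while the other group B libraries lay below it, so the groups overlapped. The log2 fold change of Cox7c was -0.32 with adjusted p = 0.671 in the authors' deposited table. The ratio of the group B mean to the group A mean was 0.774. Limma-voom over 7629 genes with recovered reads gave -0.52 with a standard error of 0.25 and adjusted p = 0.422. Without library B3 it gave -0.78 with adjusted p = 0.0468, in a fit where 243 of 7325 genes (3.32%) passed. With all 6 libraries 35 genes (0.459%) passed, and none of the 6 members tested did.

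Cox7c is another subunit found in every complex IV whose mean lay low in the authors' deposited table, at 76.2, far below those of its partners. A processed pseudogene, Gm12338, holds the identical 189 bases of coding sequence and had a mean of 488 and a log2 fold change of -0.19 (adjusted p = 0.749) in the same table. The shared sequence is shown once because reads from it cannot be assigned to either gene.
Cox7c and Gm12338: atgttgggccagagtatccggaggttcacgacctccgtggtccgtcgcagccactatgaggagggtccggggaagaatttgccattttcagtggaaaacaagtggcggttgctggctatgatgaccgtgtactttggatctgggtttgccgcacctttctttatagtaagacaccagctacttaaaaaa
The Cox7c values above are therefore uncertain in level.

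Atp5l, the g subunit of the ATP synthase membrane part, had the highest log2 fold change of the tested members in the authors' deposited table, 0.48, with adjusted p = 0.456. Its normalized reads were 14.7, 15.1 and 13.2 in A1, A2 and A3 and 22.4, 22.2 and 22.5 in B1, B2 and B3. Every group B library lay above every group A library, a ratio of 1.56, as for 13.1% of the 3339 tested genes with recovered reads. In 19.2% of those genes the groups did not overlap in either direction. The limma-voom value was 0.60 with a standard error of 0.32 and adjusted p = 0.467. Of 8 near-identical genes in GENCODE M21, 6 are in the table. With the reads of these 6 added, the values were 52.8, 67.8 and 57.7 in group A and 47.9, 56.2 and 84.2 in group B. The groups then overlapped and the ratio was 1.06. This sum was chosen after seeing the data.

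Cox4i2 had 104, 98.0 and 62.6 normalized reads in group A and 81.8, 77.6 and 84.2 in group B, and its limma-voom value was -0.14 with adjusted p = 0.841. All of group B lay inside the range of group A. Cox6b2 had 9.52, 8.79 and 11.5 in group A and 15.3, 11.1 and 4.49 in group B, with library B3 the lowest and B1 the highest of all. Atp5g2 had 4.33, 0 and 6.59 in group A and 2.56, 5.91 and 3.37 in group B. Cox7b2 and the pseudogene Atp5l2 had at most 8 and 2 reads in any library, too few to compare.

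**Figure D5:**
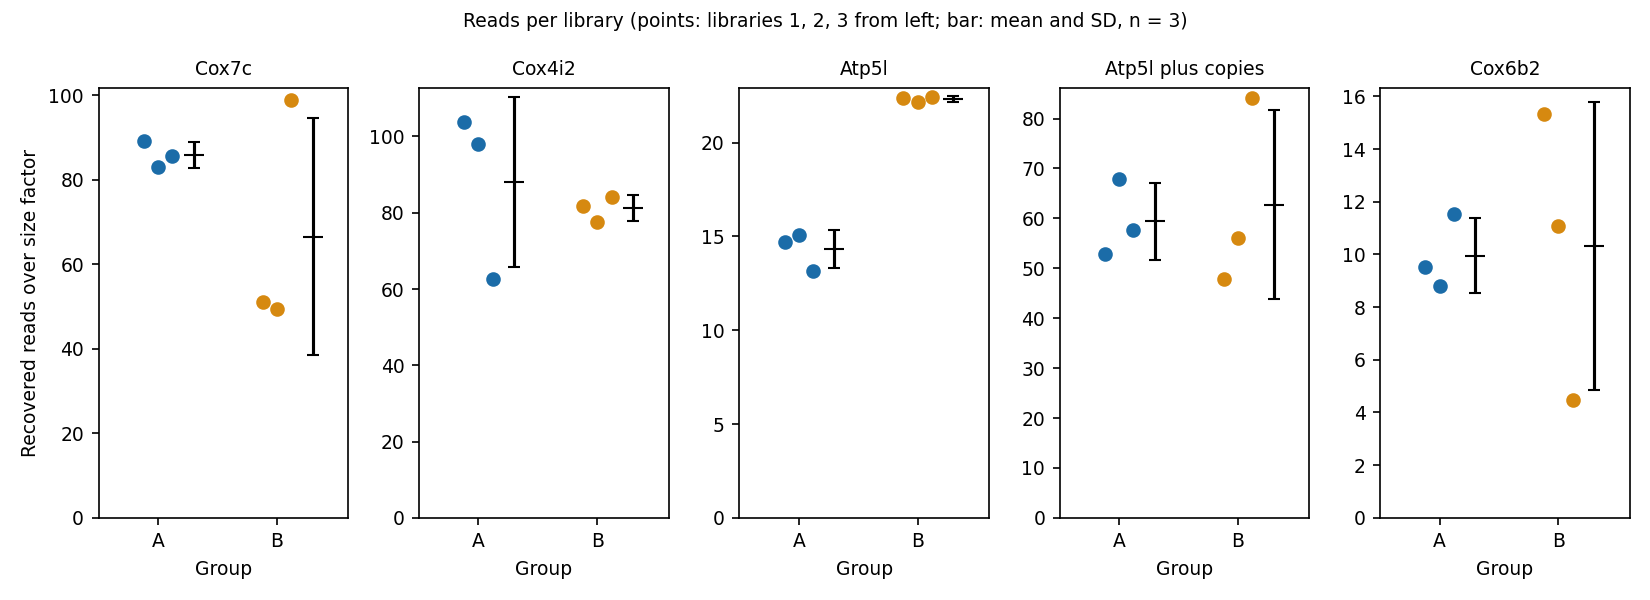
Recovered reads divided by the library's size factor (vertical axis, from 0) for low members, with libraries 1 to 3 of group A (blue) and group B (orange) and the mean and SD of 3 libraries. Of the genes shown, Atp5l alone separates the groups, and with the reads of the 6 near-identical genes in the table added (Atp5l plus copies) they overlap.

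Besides these, 15 members had no adjusted p although their means lay above the lowest tested mean. They were Ndufa12, Ndufb4, Ndufb5, Ndufb11 and Ndufs4 of complex I, Sdhd of complex II, Uqcrc1 and Uqcrc2 of complex III, Cox7b and Ndufa4 of complex IV, and Atp5e, Atp5f1, Atp5h, Atp5j2 and Atp5k of complex V. That is 19.0% of the 79 members above that mean, beside 1.45% of all such genes (194 of 13424) in the authors' deposited table. Among genes with a mean of at least 1000 it is 21.1% (15 of 71) beside 3.60%. Their log2 fold changes ran from -0.18 to 0.09 in the authors' deposited table, with 14 of 15 within 0.1 of 0, as against 24 of 64 tested members. The table gives no reason, and reads per library could not be recovered at these means. Near-identical genes were found for 7 of the 15 and for 21 members in all.

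Genes that serve the chain without matching the symbol pattern were also counted. Of 41 assembly factors in the authors' deposited table, 39 had an adjusted p. Of these 39, 27 (69.2%) were negative, beside 50.1% of all tested genes, and the median was -0.07. In this list 1 gene was called, lower in group B, beside 2.49% of all tested genes called lower. That gene, Cox17, the copper chaperone that supplies complex IV, fell by 0.93 on the log2 scale at a mean of 803 by the authors' deposited table, with adjusted p = 3.72e-08 and an SE of at most 0.14. Its exons overlap 257 bases of Gm21987 on the same strand. None of the 13 complex I assembly factors was called. Among 6 tested subunits and partners that the pattern misses, 0 were called in the authors' deposited table, 4 of 6 lay above 0, and the median was 0.09. They ran from -0.31 for Ndufa4l2, a paralogue of Ndufa4 (adjusted p = 0.417), to 0.40 for Atpif1, the inhibitor of ATP synthase (adjusted p = 0.354), by the authors' deposited table.

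Of 12 tested regulators of mitochondrial biogenesis, 0 were called in the authors' deposited table, and 6 lay on each side of 0. The extremes were Esrra, an oestrogen-related receptor that activates respiratory genes (-0.27, adjusted p = 0.288), and Ppargc1a, the coactivator PGC-1 alpha (0.36, adjusted p = 0.499), in the authors' deposited table. Tfam, which activates transcription of mitochondrial DNA and packs it, had 0.03 and no adjusted p there. The family members that are not subunits were Atp5sl, Atp5s and Cox7a2l. Atp5sl, known in human cells as a complex I assembly factor, had -0.38 (adjusted p = 0.0528) in the authors' deposited table. Atp5s had -0.09 and Cox7a2l 0.03 there. At an adjusted p under 0.1, 3 of the 64 members were lower, the third being Atp5sl, beside 3.59% of all tested genes.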

How the data were processed

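RNA-seq of ventricles was compared between groups A and B. Per the submitters' processing notes, reads were processed with Bowtie2 2.0 and DESeq2 on mm9, with no role or order given. Per the file headers, the deposited table gives a mean normalized count per gene (a signal: reads over size factors, pooled over all libraries by the authors), a log2 fold change by the authors and an adjusted p-value by the authors. It holds no standard errors. The largest p that each adjusted p allows was turned into an upper bound of the standard error, with a normal quantile. In 3004 of 3339 tested genes with recovered reads (90.0%), the deposited log2 fold change lay nearer 0 than the log2 ratio of reads.

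Deposited coordinates were identical to GENCODE M21 (GRCm38) for 25481 of 36602 genes, and GRCm38 is therefore the build printed here, not the mm9 of the notes. Near-identical genes had at least 95% identity over 80% of the coding sequence (blastn 2.17.0).

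For means of up to 100, the 6 whole numbers of reads whose weighted sum gives the deposited mean were solved, and 13392 of 13403 genes (99.9%) had exactly 1 solution. The weights came from genes with 1 read, and the sign of their fold change gave the letter. The solver and limma-voom were tested on simulated data. Limma-voom (limma 3.58.1, R 4.3.3) was run on genes with at least 10 reads, with Benjamini-Hochberg adjustment. The depth at higher means is known only as size factors of 0.61 to 1.56.

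A planned count test on libraries mapped to genotypes was not run, because the table has no columns per sample and the letters are not mapped. Named genes are the members called at 0.05 or 0.1, all isoform sets, complex II, the 2 lowest and 2 highest of each complex, the 3 highest means, those with a mean under 100 and those with no adjusted p, and the called or extreme genes of the other lists. Members and lists were chosen with earlier results of these data known.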

Additional observations from a re-analysis of the deposited data

How the results depend on the processing

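At an adjusted p under 0.01, the number of members lower in group B was 1 (Cox6a2) in place of 2, since Ndufs6 no longer passed; at 0.1 it was 3, with Atp5sl. The number higher stayed at 0 at both thresholds. The median over members ran from -0.13 to -0.05 over the alternatives. The Cox4i2 value on recovered reads was 0.015 without library A1, a change of sign, and ran from -0.32 to 0.015 when each library was left out in turn. Cox7c ran from -0.78 to -0.35 and passed without library B3 (adjusted p = 0.0468). Atp5l stayed above 0 in all these runs. The complex medians stayed below 0 under the alternatives run, from -0.12 to -0.04 for complex I, -0.27 to -0.19 for II, -0.10 to -0.02 for III, -0.13 to -0.05 for IV and -0.18 to -0.10 for V. The number of genes limma-voom called among all genes was 35, and it ran from 0 (586 at an unadjusted p under 0.05) without A2 to 243 without B3, and was 224 with no filter on low reads; the causes were not tested. Libraries of 1 letter reduced to 2 leave the spread to be shared with the other group. The planned test of counts mapped to genotypes, with its alternatives, was not run. No paired analysis was possible because the libraries carry no replicate numbers in the labels. Medians with members that have no adjusted p, or without members that have near-identical genes, were chosen after seeing the data.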

Other observations

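The share of genes with no adjusted p was also above that of all genes in other groups, chosen after their values were seen: 9 of 79 mitochondrial ribosomal genes (Mrpl, Mrps) and 4 of 38 proteasome genes (Psma to Psmd) with a mean above the lowest tested mean had none, beside 1.45% of all such genes. Of genes with recovered reads, 7 had a mean above the lowest tested mean and no adjusted p. Abhd1 had 230 normalized reads in A2 and 16.5 to 53.9 in the other libraries. In library B1, Foxp4 had 111 (26.9 to 54.4 elsewhere), Meg3 had 156 (59.0 to 73.9 elsewhere) and Zfp395 had 217 (57.7 to 112 elsewhere). Egr2, an immediate early factor, had 155 and 147 normalized reads in A1 and A2 and 6.39 to 11.5 in the other libraries. Ucp1, the uncoupling protein of brown fat, had 52.7 in A3 and 118 in B3 and 1.73 to 3.77 in the others. Gm26890 had 51.1 in B1 and 9.52 to 17.7 elsewhere. Whether single libraries stand apart at the 15 respiratory chain members with no adjusted p was not tested.

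The antisense gene 4930481A15Rik, which is near-identical to the coding sequence of the complex III subunit Uqcr10, had a log2 fold change of -0.57 (adjusted p = 0.00165) in the authors' deposited table, where Uqcr10 itself had -0.12 (adjusted p = 0.894). It was found through the search for near-identical genes and chosen after its values were seen.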
